A study of Homo sapiens with 4 samples.

Results

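HMOX1, OSGIN1, TKT and PRDX1 are 4 genes that are described as targets of the transcription factor NRF2. They are 4 of the 14884 named genes measured on 4 whole-transcript Affymetrix arrays. The cells were LS411N-5FU-R, derived from the metastatic colon carcinoma line LS411N by making it resistant to 5-fluorouracil. They were grown for 3 days without verticillin A (0 nM, control, 2 arrays) or with 50 nM of this fungal metabolite (2 arrays). All 4 samples carry the resistant state, and the labels do not say whether the line is a single clone or whether samples of a group were separate cultures. The spread that enters each p-value here may thus be technical. The genes were picked because, in an earlier analysis of these same 4 arrays, they had the largest changes among called NRF2 target genes, each gene being read from its highest-mean probe set (all 4 have 1 named probe set). Their difference between 0 and 50 nM is therefore given as a description, with no test.

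NRF2, encoded by NFE2L2, is held in the cytoplasm by KEAP1, which hands it to a CUL3 ubiquitin ligase for destruction. When reactive cysteines of KEAP1 are modified, NRF2 escapes, pairs with a small MAF protein in the nucleus and binds antioxidant response elements, sites that the repressor BACH1 otherwise occupies at genes such as HMOX1. The products of its target genes break down haem, reduce peroxides, rebuild thioredoxin and glutathione, and supply NADPH. Because NRF2 is controlled mainly through the stability of its protein, transcript arrays read its targets rather than NRF2 activity itself.

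Proximal promoter sequences were taken from RefSeq (build GRCh38.p14), which matched OSGIN1 and TKT among the 4 genes. The windows below are the 250 bases before each gene's start, 5′ to 3′ on the gene's strand, and are shown because they are where a proximal response element of these genes would be read. TXNRD1, the thioredoxin reductase gene described further on, is printed beside them for comparison. Capitals mark matches to TGACNNNGC, a core of the antioxidant response element, or to TGACTCA, the core of AP-1 sites, each searched on both strands; the letters of TGACTCAGC would count for both.
OSGIN1, chr16:83952990-83953239, + strand: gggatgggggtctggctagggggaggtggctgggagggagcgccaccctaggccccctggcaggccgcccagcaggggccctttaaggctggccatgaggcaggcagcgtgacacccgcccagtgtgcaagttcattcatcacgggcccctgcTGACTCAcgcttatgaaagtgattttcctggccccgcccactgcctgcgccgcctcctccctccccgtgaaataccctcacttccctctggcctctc
TKT, chr3:53256023-53256272, - strand: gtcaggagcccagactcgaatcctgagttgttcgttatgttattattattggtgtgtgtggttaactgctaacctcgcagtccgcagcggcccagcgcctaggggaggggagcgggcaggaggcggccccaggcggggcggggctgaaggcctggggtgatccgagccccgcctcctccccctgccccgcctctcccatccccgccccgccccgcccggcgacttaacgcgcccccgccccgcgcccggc
TXNRD1, chr12:104215529-104215778, + strand: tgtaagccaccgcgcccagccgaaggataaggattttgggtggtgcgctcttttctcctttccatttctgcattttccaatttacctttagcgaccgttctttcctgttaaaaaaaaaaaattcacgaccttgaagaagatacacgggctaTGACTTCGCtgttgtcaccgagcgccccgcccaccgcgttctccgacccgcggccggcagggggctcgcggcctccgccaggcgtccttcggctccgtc

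The OSGIN1 window held 1 match to TGACTCA, from -97 to -91 relative to the start, and 0 to TGACNNNGC. The TKT window held 0 of either. TXNRD1 has 2 windows in RefSeq with 1 match to TGACNNNGC each, at -99 to -91 on the gene's strand in the window printed and at -102 to -94 on the opposite strand in the other. Of all 35116 promoter windows of this length, 10.9% held TGACNNNGC, 4.2% held TGACTCA and 0.456% held TGACTCAGC. A match is a description of letters and not a binding site, and a window without one says nothing of sites elsewhere.

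HMOX1 encodes the inducible haem oxygenase, which opens haem to biliverdin, carbon monoxide and iron. Its log2 expression values were 7.99 and 8.11 on the control arrays and 9.51 and 9.54 with verticillin A. Both treated arrays lay far above both control arrays, and the smallest distance between the groups, 1.40, was 11.1 times the larger of the differences within a group. The means were 8.05 ± 0.089 and 9.52 ± 0.020 (SD, n = 2 per group), a 2.77-fold difference, and 3 of the 14884 genes had a larger upward change. In these bulk samples a change in the share of cells with the transcript and a change in RNA per cell cannot be told apart.

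OSGIN1 encodes an oxidative stress-induced growth inhibitor. Its log2 values were 4.67 and 4.79 in control and 5.52 and 5.45 with verticillin A. The groups did not overlap, with a smallest distance of 0.66 against a largest within-group difference of 0.11. The means were 4.73 ± 0.080 and 5.48 ± 0.048 (SD, n = 2 per group), a 1.69-fold difference that ranked 72 among upward changes. No detection calls were used, and the 8 measured marker genes of leukocytes, endothelium and liver had values of 3.51 to 4.83, a range that contains both control values of OSGIN1. Those control values cannot be separated from background, where a fold difference on this scale can understate the change in RNA.

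TKT encodes transketolase, the enzyme of the non-oxidative pentose phosphate pathway that exchanges carbon between sugar phosphates of the pathway and those of glycolysis. Its log2 values were 10.20 and 10.25 in control and 10.84 and 10.89 with verticillin A. The arrays of each group lay 0.049 apart, and the smallest distance between the groups was 0.59, or 12.1 times that. The means were 10.22 ± 0.034 and 10.86 ± 0.034 (SD, n = 2 per group), a 1.55-fold difference at rank 129.

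PRDX1 encodes peroxiredoxin 1, a cytosolic peroxidase that reduces hydrogen peroxide with electrons from thioredoxin. Its log2 values were 12.63 and 12.77 in control and 13.25 and 13.33 with verticillin A. The groups were apart here too, but with the least margin of the 4 genes relative to the replicates: the smallest distance, 0.48, was 3.37 times the larger within-group difference of 0.14. The means were 12.70 ± 0.10 and 13.29 ± 0.055 (SD, n = 2 per group), a 1.50-fold difference at rank 160. Over all genes, the median difference within a group was 0.097 between the control arrays and 0.078 between the treated ones. Of all genes, 25.7% had both treated arrays above both control arrays, and 29.1% had both below.

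**Figure D1:**
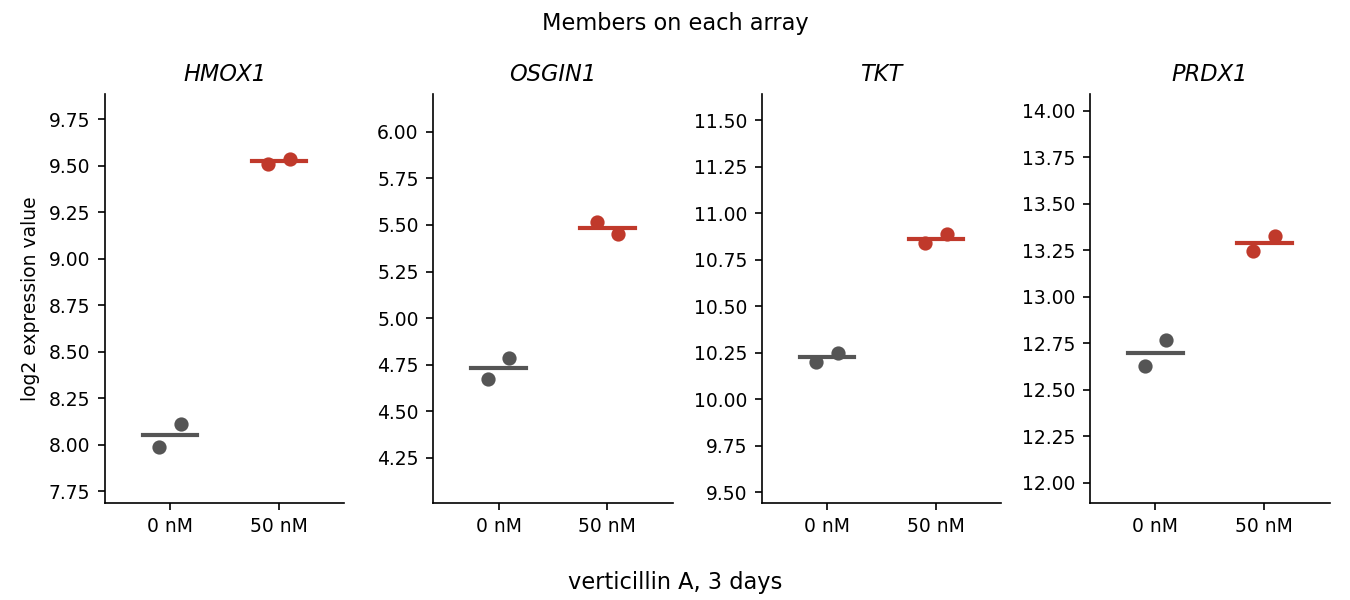
Log2 expression value (vertical axis, the same span in each panel) of HMOX1, OSGIN1, TKT and PRDX1 on each array at 0 and 50 nM verticillin A; points are arrays and bars are means of 2. In every panel both treated points lie above both control points, with the widest step for HMOX1 (8.05 to 9.52) and the narrowest for PRDX1 (12.70 to 13.29).

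The log2 change of HMOX1 (1.47) was 0.72 above that of OSGIN1 (0.75), 0.84 above that of TKT (0.64) and 0.88 above that of PRDX1 (0.59). The other 3 genes lay within 0.16 of each other. The values that involve OSGIN1 carry the limit given above, as its change can be understated. TKT and PRDX1 differed by 0.047, which is less than the spread between replicates of either PRDX1 group. The choice of members ended just below PRDX1: TXN, the next called NRF2 target gene, had a log2 change of 0.58. With 1 array left out in turn, the change ran from 1.41 to 1.53 for HMOX1, 0.70 to 0.81 for OSGIN1, 0.61 to 0.66 for TKT and 0.52 to 0.66 for PRDX1.

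The likeness of other genes to each member was measured as the Euclidean distance between log2 values, centred on the control mean, over the 4 arrays, so that a small distance means that the arrays moved alike. Nearest to HMOX1 were KRTAP2-3, a keratin-associated protein gene with near-identical copies (distance 0.10), CD68, a lysosomal glycoprotein gene (0.16), and IGFBP6, which encodes a binding protein of insulin-like growth factors (0.21). Nearest to OSGIN1 were SNAR-C1, a small non-coding RNA gene of a family of near-identical copies (0.053), PIR-FIGF, a read-through gene that joins PIR to its neighbour (0.061), and TICRR, a regulator of replication origin firing (0.074). The PIR-FIGF probe set had values of 6.67 and 6.80 in control and 7.49 and 7.41 with verticillin A, a 1.64-fold difference. PIR itself, a gene described as an NRF2 target, has no named probe set here, and RNA of PIR and of the read-through cannot be told apart on this probe set.

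Nearest to TKT were the zinc finger gene ZNF79 (0.025), GSTT2B, a glutathione transferase gene (0.031), and EME1, which encodes a subunit of a structure-specific nuclease (0.039). A second probe set of EME1 had a change of 0.14, and the mean of both 0.40. Nearest to PRDX1 were the sirtuin gene SIRT7 (0.011), CRABP2, a retinoic acid binding protein gene (0.013), and the muscle-associated gene CMYA5 (0.017). The values of CMYA5, 3.93 to 4.63, cannot be separated from background here. These genes were picked for their likeness over 4 arrays from 14884 genes, and their values are descriptions.

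**Figure D2:**
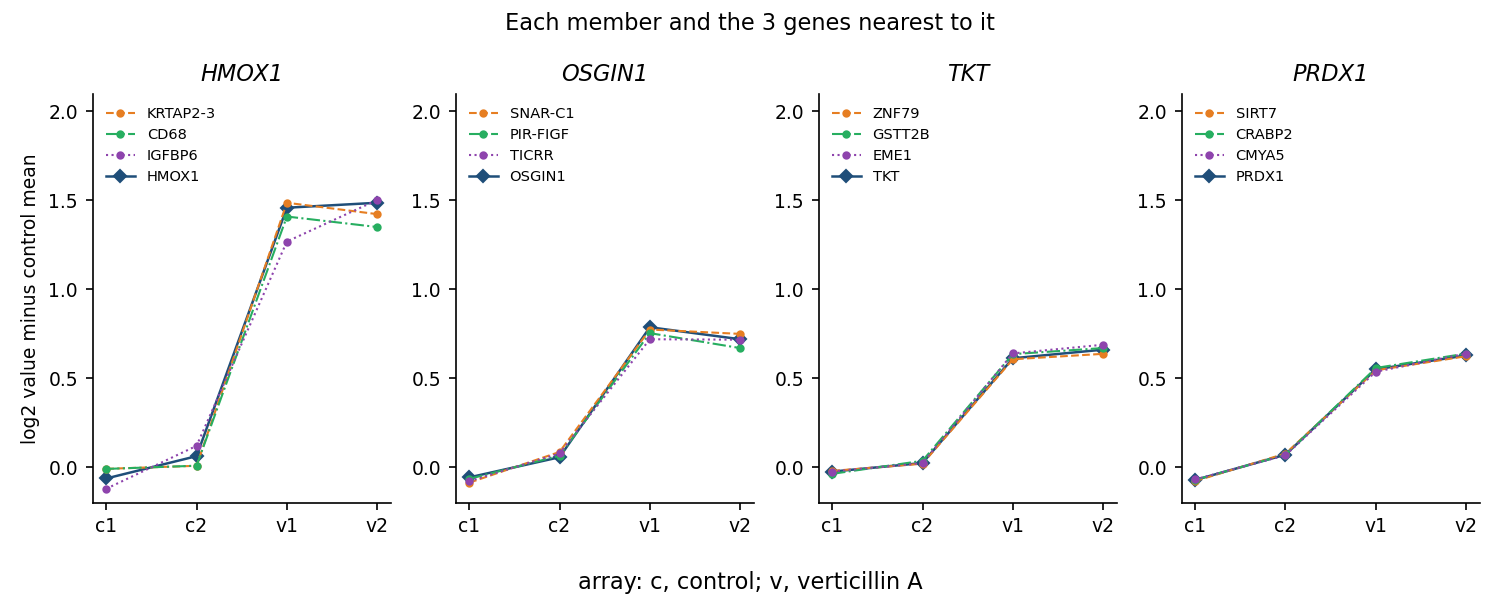
Log2 value minus the gene's own control mean (vertical axis) on the 4 arrays (c1 and c2 control, v1 and v2 verticillin A) for each member and its 3 nearest genes; lines join the arrays to guide the eye and imply no order. The 4 profiles of the TKT and PRDX1 panels nearly coincide, while those of the HMOX1 panel lie further apart (distances of 0.10 to 0.21).

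Other genes of the pathway were tested with limma over all 14884 genes ("called" means an adjusted p, after Benjamini-Hochberg adjustment, under 0.05). By this rule 3.55% of all genes were called higher and 5.1% lower (528 and 759; 750 and 668 when each array was centred on its median), 8.65% in all, and the median log2 change was -0.0058. Of 27 measured genes of 55 listed as other NRF2 targets, 4 rose (14.8%) and 0 fell, with a median log2 change of 0.16. An unadjusted limma p under 0.05 was found for 13 of the 27, in both directions, against 3970 of all 14884 genes. In limma fits without the dimmest 50% of genes, which left 20 of these targets, 7 rose and 2 fell, and with an intensity trend in the variance 6 rose and 2 fell. Over all genes, 1070 rose and 1329 fell of 7442 without the dimmest, and 1067 and 1361 of 14884 with the trend. The list was written with earlier results of these arrays known, so its count is not independent evidence. NQO1, GCLC, GCLM, SLC7A11, FTH1, FTL and the AKR1C genes, widely used as NRF2 readouts, were not analysed here because no probe set is named for them.

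The 4 called targets belong to the thioredoxin and glutathione reducing systems. TXN, thioredoxin itself, which carries electrons to PRDX1, had log2 values of 11.43 and 11.39 in control and 11.99 and 11.99 with verticillin A (change 0.58 ± 0.066, SE, limma adjusted p = 0.0139). TXNRD1, the cytosolic reductase that recharges thioredoxin from NADPH, went from 9.01 and 9.08 to 9.55 and 9.58 (0.52 ± 0.070, adjusted p = 0.0192). The groups of both genes were far apart relative to their replicates. GSR, the reductase of oxidised glutathione, rose from 11.72 and 11.78 to 12.14 and 12.16 (0.41 ± 0.068, adjusted p = 0.0302). SRXN1, sulfiredoxin, which repairs over-oxidised peroxiredoxins including PRDX1, rose from 9.54 and 9.66 to 9.93 and 9.98 (0.36 ± 0.076, adjusted p = 0.0493) and stood just inside the threshold.

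These calls depended on all 4 arrays and on which features were adjusted over. The calls of all 4 NRF2 targets were lost whichever array was left out, which leaves 1 array in a group. Adjusted over all 53617 probe sets, named or not, limma called 0 of the 27 targets. In that fit 9 of them had an unadjusted p under 0.05, against 3128 of all 14884 genes. The log2 changes moved little when an array was left out (TXN 0.57 to 0.60, TXNRD1 0.48 to 0.56, GSR 0.38 to 0.44, SRXN1 0.30 to 0.42).

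Of the 27 targets, 15 (the called 4 included) had both treated arrays above both control arrays, 4 had both below, and 8 overlapped (25.7% and 29.1% of all genes lay above and below). SQSTM1, the autophagy receptor p62 that binds KEAP1, had 7.73 and 7.75 in control and 7.94 and 8.01 with verticillin A (0.24 ± 0.069, limma adjusted p = 0.0983). GPX2, an epithelial glutathione peroxidase of the gut, had 7.18 and 7.41 against 6.89 and 6.90 (-0.40 ± 0.096, adjusted p = 0.0639), the lowest change of the list. UGDH, a sugar dehydrogenase gene, had a change of 0.018. SQSTM1, GPX2 and UGDH were picked after their values were seen.

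**Figure D3:**
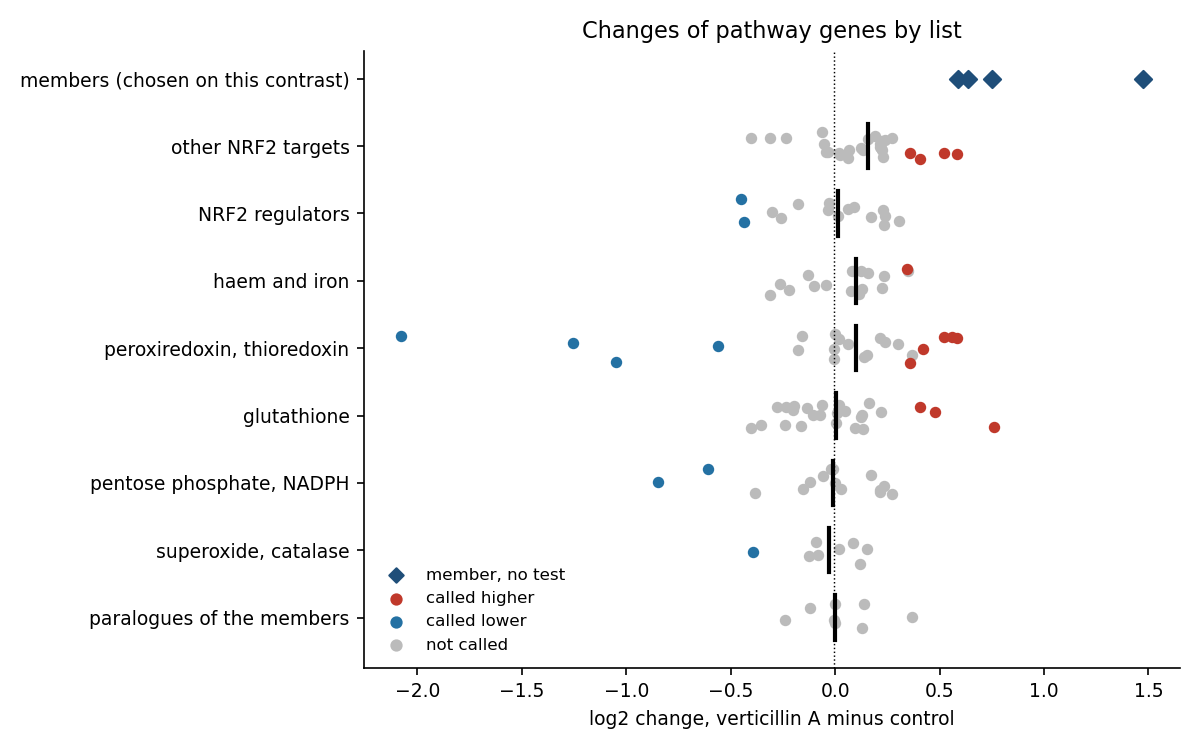
Log2 change, verticillin A minus control (horizontal axis), of every measured gene of each list (rows); colours give the limma call, black bars the list medians, and the dotted line the median of all genes (-0.0058). Diamonds are the 4 members, which were chosen on this contrast; called targets reach 0.58, and the thioredoxin row holds both rises and falls down to -2.08.

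The transcript of NRF2 itself moved opposite to the 4 members. NFE2L2 had log2 values of 9.89 and 9.97 in control and 9.49 and 9.50 with verticillin A, a 1.35-fold fall (-0.43 ± 0.070, SE, limma adjusted p = 0.0277). Its relative NFE2L1, which encodes NRF1, a factor of proteasome gene expression, fell 1.37-fold, from 10.38 and 10.37 to 9.91 and 9.94 (adjusted p = 0.0228). In both genes the treated arrays lay below the control arrays by at least 0.39.

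Of the 15 measured genes of 20 listed as NRF2 regulators, these 2 were the called ones (13.3%, against 5.1% of all genes called lower), 0 rose, and the median log2 change was 0.014. Without the dimmest 50% of genes 2 of 14 rose and 4 fell (1070 and 1329 over all 7442 genes). With an intensity trend 1 of 15 rose and 3 fell (1067 and 1361 over all 14884 genes). KEAP1, the repressor, had 8.72 and 8.72 in control and 8.97 and 9.08 with verticillin A, groups that did not overlap, and a change of 0.31 ± 0.074 that missed the threshold (limma adjusted p = 0.0654; 0.0185 with the dimmest 50% of genes left out and 0.0107 with an intensity trend in the variance). CUL3, the scaffold of the KEAP1 ligase, changed by 0.060 (adjusted p = 0.643) and was picked after its value was seen. MAFG, a small MAF partner of NRF2, had 6.63 and 6.88 against 6.97 and 6.99 (0.23 ± 0.098, adjusted p = 0.218), with control arrays further apart than the groups. BACH1 was not analysed here. The calls of NFE2L2 and NFE2L1 were lost whichever array was left out. Adjusted over all probe sets, limma called 0 of the regulators (6 at an unadjusted p under 0.05, against 3128 of all 14884 genes).

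Around PRDX1, the peroxiredoxin and thioredoxin genes went both ways. Of 22 measured of 23 listed, 5 rose (22.7%) and 4 fell (18.2%), 40.9% called against 8.65% of all genes, with a median log2 change of 0.10. The 5 that rose were TXN, TXNRD1, SRXN1, SESN1 and TXNDC17, and the 4 that fell were TXNIP, SESN2, SESN3 and TXNRD3. SESN1, TXNDC17 and TXNRD3 are named because the counts are small, after their values were seen. When the dimmest 50% of genes were left out, 9 of 21 rose and 4 fell (1070 and 1329 over all 7442 genes). An intensity trend gave 8 rises and 4 falls among the 22 (1067 and 1361 over all 14884 genes). This list too was written with earlier results of these arrays known. TXN, TXNRD1 and SRXN1 are also counted among the NRF2 targets, so the share called is not independent evidence.

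TXNIP, the alpha-arrestin that binds thioredoxin and blocks it, fell 4.22-fold, from 7.63 and 7.67 to 5.49 and 5.66 (-2.08 ± 0.083, limma adjusted p = 0.0024). It has a second, dimmer probe set (3.85 and 3.62 against 3.31 and 3.55, change -0.31), and the mean of both fell by 1.19 (adjusted p = 0.0076). The thioredoxin transcript and that of its inhibitor therefore moved in opposite directions. The sestrins, stress proteins that restrain mTORC1 signalling, split: SESN2 fell by 1.25 ± 0.076 (adjusted p = 0.0050) and SESN3 by 1.05 ± 0.11 (adjusted p = 0.0125), whereas SESN1 rose by 0.56 ± 0.067 (adjusted p = 0.0159). TXNDC17, a thioredoxin-like protein gene, rose by 0.42 ± 0.069 (adjusted p = 0.0289). TXNRD3, a reductase known chiefly from testis, fell from 8.74 and 8.70 to 8.09 and 8.23 (adjusted p = 0.0215), opposite to TXNRD1. The mitochondrial reductase gene TXNRD2, named after its values were seen, had 6.54 and 6.57 against 6.79 and 6.76 and was not called (0.21 ± 0.066, limma adjusted p = 0.114). All calls of this list were lost without either control array. Without either verticillin A array, only those of TXNIP, SESN2 and SESN3 remained. Adjusted over all probe sets, TXNIP alone was called.

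Of the 8 measured paralogues of the 4 members 0 were called in limma, with a median log2 change of 0.00013. An unadjusted p under 0.05 was found for 1, against 3970 of all 14884 genes. With 8.65% of all genes called, a count of 0 among 8 is near the background. The filter on the dimmest 50% of genes left 6 of the 8, without TKTL1 and TKTL2. PRDX2, the other cytosolic typical peroxiredoxin, came closest, with 9.15 and 9.30 in control and 9.59 and 9.58 with verticillin A (0.37 ± 0.080, adjusted p = 0.0522). It was called in 4 alternatives: 0.0442 after quantile normalization, 0.0322 after median centring, 0.0143 without the dimmest genes and 0.0050 with an intensity trend (limma adjusted p). PRDX2 was not called with averaged probe sets (limma adjusted p = 0.0515), with the replicate block (0.0845) or over all probe sets (0.168). PRDX3, the mitochondrial peroxiredoxin, had 11.85 and 11.77 against 11.96 and 11.93 (0.14 ± 0.071, adjusted p = 0.297).

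PRDX4, of the endoplasmic reticulum, had 7.44 and 7.58 against 7.50 and 7.51 (-0.0054 ± 0.078), and PRDX6, the 1-Cys member with phospholipase activity, 10.45 and 10.47 against 10.52 and 10.40 (0.00075 ± 0.074); the groups of both overlapped, and their sign turned in some alternatives. HMOX2, the constitutive haem oxygenase, had 7.15 and 7.48 in control and 7.44 and 7.45 with verticillin A (0.13 ± 0.12, limma adjusted p = 0.575), so its treated values lay between its control values. The transketolase-like genes TKTL1 and TKTL2 had values of 3.94 to 4.18 and of 3.26 to 3.33 and changes of -0.12 ± 0.083 and -0.00049 ± 0.069, the latter turning sign after quantile normalization and median centring. Values of both genes cannot be separated from background here, so a lack of change in them cannot be read. OSGIN2, the paralogue of OSGIN1, had 8.76 and 8.56 against 8.50 and 8.33 (-0.24 ± 0.10, adjusted p = 0.215). Whether the members differ from their paralogues was not tested, since the members were chosen for their change.

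**Figure D4:**
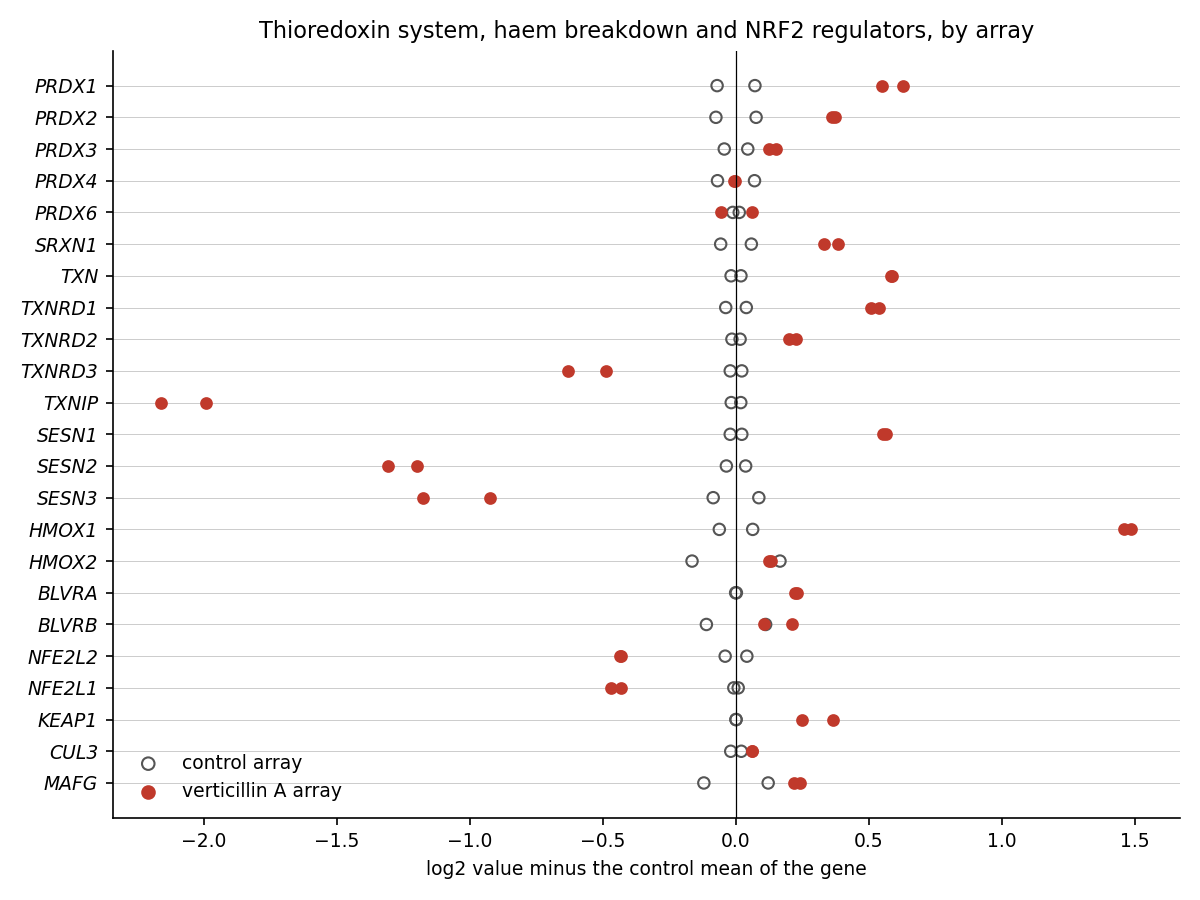
Log2 value minus the gene's own control mean (horizontal axis) on each of the 4 arrays for genes of the thioredoxin system, haem breakdown and NRF2 control (rows); open circles are control arrays and filled circles verticillin A arrays. HMOX1, PRDX1, TXN and TXNRD1 lie to the right of their controls, TXNIP, SESN2 and SESN3 far to the left, and NFE2L2 to the left by 0.43.

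Of 16 measured haem and iron genes of 31 listed, 1 rose (6.25%) and 0 fell, with a median of 0.099, a share of calls near the 8.65% of all genes. Without the dimmest 50% of genes 3 of 11 rose and 2 fell (1070 and 1329 over all 7442 genes). With an intensity trend 2 of 16 rose and 2 fell (1067 and 1361 over all 14884 genes). The call was NCOA4, the receptor that brings ferritin to autophagy and so frees its iron, at 9.90 and 9.89 in control and 10.21 and 10.27 with verticillin A (0.34 ± 0.068, limma adjusted p = 0.0418). The biliverdin reductases, which act on the product of HMOX1, were not called. BLVRA had 6.20 and 6.21 against 6.44 and 6.43, groups apart by 0.22 with SDs of 0.0020 and 0.0042, and an adjusted p of 0.0969 in limma, which was 0.0285 without the dimmest 50% of genes. BLVRA was not called with an intensity trend (limma adjusted p = 0.172), with the replicate block (0.146) or over all probe sets (0.250). Nor was it after quantile normalization (0.0975) or median centring (0.0645). BLVRB had 7.13 and 7.35 against 7.34 and 7.45, with overlapping groups. Leaving out any 1 array ended the call of NCOA4, as did adjustment over all probe sets (limma adjusted p = 0.147).

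Of 15 measured genes of 27 listed for the pentose phosphate pathway and NADPH, beside TKT, 0 rose and 2 fell (13.3%, against 3.55% of all genes called higher and 5.1% lower). Their median was -0.011, and 6 had an unadjusted limma p under 0.05, against 3970 of all 14884 genes. After median centring 1 rose and 2 fell, and without the dimmest 50% of genes (13 measured) or with an intensity trend 2 rose and 3 fell. Over all genes, 1070 rose and 1329 fell of 7442 without the dimmest, and 1067 and 1361 of 14884 with the trend. NNT, the mitochondrial transhydrogenase that makes NADPH, fell 1.80-fold, from 6.84 and 7.07 to 5.99 and 6.22 (-0.85 ± 0.12, limma adjusted p = 0.0208). H6PD, which starts a pentose phosphate pathway inside the endoplasmic reticulum, fell 1.53-fold, from 6.92 and 7.08 to 6.27 and 6.51 (adjusted p = 0.0341). PGD and TALDO1, cytosolic enzymes of the same pathway as TKT, had changes of 0.27 ± 0.072 (adjusted p = 0.0788) and 0.21 ± 0.095 (adjusted p = 0.232), with groups that did not overlap; they were picked after their values were seen. The call of NNT held without verticillin A replicate 2 and was lost without each of the other 3 arrays. That of H6PD was lost whichever array was left out. Adjusted over all probe sets, limma called 0 of the list (5 at an unadjusted p under 0.05, against 3128 of all 14884 genes).

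In the glutathione list, 3 of 25 measured genes of 34 rose (12%, against 3.55% of all genes) and 0 fell, with a median of 0.0058. Without the dimmest 50% of genes 3 of 18 rose and 3 fell (1070 and 1329 over all 7442 genes). With an intensity trend 4 of 25 rose and 2 fell (1067 and 1361 over all 14884 genes). Besides GSR the 3 called as reported were GSTT2, a theta-class glutathione transferase (8.08 and 8.23 to 8.80 and 9.03, 0.76 ± 0.11, limma adjusted p = 0.0208), and MGST3, a microsomal one (5.73 and 5.67 to 6.23 and 6.13, 0.48 ± 0.074, adjusted p = 0.0257). GSTT2 and GSTT2B are near-identical copies whose probes may share RNA, so they are not separate observations. Of 8 measured superoxide and catalase genes of 13, 0 rose and 1 fell. With 8.65% of all genes called, a count of 1 among 8 (12.5%) is near the background. NOX1, NOX4, NOXO1, DUOX2 and DUOXA2 had values of 3.57 to 4.48, which cannot be separated from background here. Only 3 of the 8 remained when the dimmest 50% of genes were left out, of which 1 fell (1070 and 1329 over all 7442 genes rose and fell). Catalase (CAT), which splits hydrogen peroxide without thioredoxin, went from 9.40 and 9.53 to 9.01 and 9.13 (-0.39 ± 0.083, limma adjusted p = 0.0494). The call of CAT was lost after median centring (adjusted p = 0.0511) and whichever array was left out (limma adjusted p = 0.0955 to 0.21). Among the glutathione calls, only that of GSTT2 held without verticillin A replicate 1. All were lost without each of the other 3 arrays.

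Over the 8 lists together, 113 different genes were measured, of which 9 rose and 9 fell (7.96% each, against 3.55% and 5.1% of all genes), with a median log2 change of 0.018. All 8 lists were written with earlier results of these arrays known, so these shares are not independent evidence. RefSeq windows were found for 7 of the 9 genes that rose, 2 of which (TXNRD1 and SESN1) held TGACNNNGC. The motif was found for 0 of the 9 genes that fell and for 17 of 80 that were not called. Over all 27305 genes with a window, 13.2% had it in at least 1. TGACTCA was found for 1 of these genes, GSTP1, within the longer TGACTCAGC.

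The arrays were alike, with correlations over all probe sets of 0.994 within control, 0.995 within verticillin A and 0.990 to 0.992 between groups. Of 12 measured markers of colonic epithelium, EPCAM (10.94 to 11.13) and KRT18 (10.29 to 10.45) had high values, while CDX1, KRT20, PHGR1, GPA33 and CEACAM5 lay between 3.55 and 4.78 on all arrays. The latter values cannot be separated from background here. KRT19 rose and VIL1 fell among these markers (16.7% called, against 8.65% of all genes). The summed log2 level of the 12 was 73.6 to 73.7 in control and 73.6 to 74.2 with verticillin A. Of the 8 measured markers of other cell types, of 21 listed, 0 were called in limma, against 8.65% of all genes. None had an unadjusted p under 0.05, against 3970 of all 14884 genes. Their summed level was 32.6 to 33.1 in control and 32.6 to 33.5 with verticillin A.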

How the data were processed

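RNA of 4 samples, 2 per group as the labels give them, was labelled from 250 ng per sample, per the labels' protocols. The authors deposited 1 log2 value per probe set and array, made with GCRMA per the submitters' processing notes; for its version, the annotation, build and filters, the sources used here give nothing. The log2 scale was read from the range, 2.60 to 14.47. Array medians of 4.59 to 4.62 show that a global change of RNA would not be seen.

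The platform annotation names 1 gene for 16098 of 53617 probe sets and several for 0; the other 37519 are unnamed here. All 16098 matched RefSeq by gene identifier, giving 14884 genes, each read from its highest-mean probe set. limma 3.58.1 (R 4.3.3) was used for all tests (lmFit, eBayes, constant prior, no filter), with Benjamini-Hochberg adjustment over all genes at 0.05; the steps were tested on simulated data. SE is the moderated one. The number of arrays limits the precision.

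The members and lists were chosen with earlier results of these data known. Named genes were the members, up to 4 called genes of the largest change per list (the 2 brightest where none was called), fixed NRF2 genes, all paralogues and the 3 nearest genes per member. Alternatives were quantile normalization, median centring, leaving out the dimmest 50% of genes, averaging probe sets, testing all probe sets, an intensity trend, the replicate number as a block and leaving out each array.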

Additional observations from a re-analysis of the deposited data

How the results depend on the processing

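Over all genes limma called 1287, against 2399 without the dimmest 50% of genes, 2428 with an intensity trend, 18 when all 53617 probe sets were tested, 592 with the replicate number as a block and 0 to 153 without 1 array; a left-out array also leaves 1 residual degree of freedom fewer. In the same order of dimmest genes left out, trend and all probe sets, the calls (directions stand with each list's counts) were 9, 8 and 0 for NRF2 targets (4 as reported), 6, 4 and 0 for regulators (2), 5, 4 and 0 for haem and iron (1), 6, 6 and 0 for glutathione (3) and 5, 5 and 0 for NADPH genes (2). The 2399 calls without the dimmest genes were among 7442 genes, and the other totals among 14884, so these counts have unlike bases. That filter left 20 of 27 NRF2 targets, 14 of 15 regulators and 11 of 16 haem and iron genes. It also left 18 of 25 glutathione genes and 13 of 15 NADPH genes. Of the thioredoxin list it left 21 of 22 genes, of the paralogues 6 of 8 and of the superoxide and catalase genes 3 of 8. The thioredoxin calls (9 as reported) were 13 without the dimmest genes and 12 with the trend. All probe sets left 1 of the 9 thioredoxin calls and 0 for catalase. Paralogues gained 1 call, PRDX2, under quantile normalization, median centring, the filter and the trend. Catalase lost its call under median centring (0). Without 1 array the ranges were 0 to 3 (thioredoxin), 0 to 1 (glutathione, NADPH) and 0 for each other list.

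The replicate numbers could not be shown to pair the arrays: the correlation of the replicate differences between groups was 0.012 over genes, with 2 pairs. With the replicate block the calls were 2 for NRF2 targets and 0 for regulators, haem and iron, and catalase; NFE2L2, NFE2L1, GSR, SRXN1, NCOA4 and CAT missed the threshold (limma adjusted p = 0.0577, 0.0530, 0.0603, 0.0745, 0.0799 and 0.0623).

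The members kept their direction in every alternative run. Leaving out an array could not turn it, as their groups did not overlap. With 2 arrays per group it also could not move a change beyond the SD pooled over both groups. Averaging probe sets could not move them, as each has 1. Under quantile normalization and median centring, only TKT moved by more than that SD, to 0.68 under median centring. Signs turned for genes near 0: PRDX6 (-0.0028 after quantile normalization, -0.011 without control replicate 1, -0.057 and 0.058 without verticillin A replicates 1 and 2), TKTL2 (0.0023 after quantile normalization, 0.038 after centring, 0.0096 without control replicate 1, 0.036 without verticillin A replicate 1), PRDX4 (0.033 after centring, -0.075 and 0.064 without control replicates 1 and 2) and HMOX2 (-0.037 and 0.29 without control replicates 1 and 2). Averaging probe sets changed no call of a tested named gene, but took TXNIP from -2.08 to -1.19 and EME1, not tested, from 0.66 to 0.40. Averaging brought in second, dimmer probe sets with changes of -0.31 (TXNIP) and 0.14 (EME1). Median centring shifts every gene alike, and took the median change of all genes from -0.0058 to 0.033. Why the probe sets of a gene differ was not tested.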
